A study of Mus musculus with 4 samples.

Results

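The BCL2 family decides whether the outer membrane of the mitochondrion is opened, the step that commits many cells to apoptosis. Anti-apoptotic proteins hold the pore-forming proteins BAX and BAK in check, and BH3-only proteins, which share a single short motif with the rest of the family, release or directly switch on the pore-formers. Glucocorticoids are known to act on members of this family in a manner that depends on the cell type: they kill lymphocytes in part through BIM, while many adherent cells are protected by them.

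The set described here holds 10 genes, found by symbol in an expression table of 23997 genes: the anti-apoptotic Bcl2, Bcl2l1 and Mcl1, the pore-forming Bax and Bak1, and the BH3-only genes Bcl2l11, Bbc3, Pmaip1, Bid and Bad. RNA was sequenced from lung endothelial cells of C57BL/6 mice, grown in EBM-2 with 10% serum and treated for 48 h with control siRNA or with siRNA to the glucocorticoid receptor (GR, encoded by Nr3c1). Each siRNA arm was left without further treatment or received dexamethasone (DEX, a synthetic glucocorticoid) at 100 nM for 18 h, which gave 4 conditions: control siRNA, control siRNA + DEX, GR siRNA and GR siRNA + DEX. The order in which siRNA and DEX were added was not given in the sources used here, nor was whether the cells were primary or a line.

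The table has 1 column of FPKM, a level per length of transcript and size of library, for each condition, although 3 replicates per condition are stated by the submitters. No value below therefore has an SD, an n or a p-value, and whether a difference exceeds the spread between replicates cannot be told. Differences are those of log2(FPKM + 1), and they are read beside the same quantity over all genes of at least 1 FPKM in a column compared. Each column listed between 11095 and 11205 genes at 1 FPKM or more. In the GR siRNA columns Nr3c1 itself was listed at 5.45 and 5.32 FPKM, against 14.4 and 14.3 FPKM with control siRNA. All 10 endothelial markers were above 1 FPKM in a column. They summed to 2539 and 2542 FPKM with control siRNA against 2282 and 2222 FPKM with GR siRNA. Most of that gap came from Cldn5 (493 and 525 against 368 and 332 FPKM) and Egfl7 (521 and 516 against 424 and 410 FPKM). Without DEX 9 of the 10 were lower and 1 higher, and with DEX 6 were lower and 4 higher. The leukocyte markers Ptprc and Cd3e were at 0, and only Cd68 of that list was above 1 FPKM, within sums of 161 to 218 FPKM. Of 8 fibroblast and mural markers 2 were above 1 FPKM, Acta2 and Dcn, with Rgs5 at 0. The 8 summed to 6.59 and 6.402 FPKM with control siRNA and 12.1 and 11.3 FPKM with GR siRNA. Acta2 was 5.65 and 5.60 FPKM against 8.82 and 7.71 FPKM, and Dcn 0.387 and 0.297 FPKM against 1.99 and 2.73 FPKM. Of 6 epithelial markers 1 was above 1 FPKM, with sums from 0.756 to 1.16 FPKM. The 4 lymphatic endothelial markers summed to 401 and 375 FPKM against 211 and 210 FPKM, most of it from Lyve1 (373 and 348 against 191 and 192 FPKM). Of the other 3, Flt4 was above 1 FPKM, Prox1 was below 0.179 FPKM in each column and Pdpn was at or near 0. The part of these cell types in the results was not tested, and fewer cells of a type and less RNA per cell cannot be told apart in bulk RNA.

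Promoter sequence is shown for Bcl2l1, Bid and Bbc3, the 3 members with the largest siRNA differences of the same direction in both DEX states. Each stretch comes from the 250 bases before an annotated RefSeq start (GRCm38.p6, the assembly of mm10) and is free of exons annotated by GENCODE. For Bid the 29 bases next to the start lie in such an exon and are left out. Capitals mark the GC box GGGCGG on either strand, a common site in promoters without a TATA box. Bcl2l1 has 3 RefSeq starts and Bbc3 has 3, of which the outermost is shown. The Bbc3 stretch lies inside the span that GENCODE gives for the gene, 16308393 to 16318205, so GENCODE has a start farther out.
Bcl2l1, chr2:152831729-152831978, minus strand, 250 bases: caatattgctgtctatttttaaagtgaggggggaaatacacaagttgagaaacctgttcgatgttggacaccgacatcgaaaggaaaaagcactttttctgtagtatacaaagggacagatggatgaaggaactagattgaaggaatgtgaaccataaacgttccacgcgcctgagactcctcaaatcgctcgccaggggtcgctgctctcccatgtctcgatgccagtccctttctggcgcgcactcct
Bid, chr6:120916854-120917074, minus strand, 221 bases: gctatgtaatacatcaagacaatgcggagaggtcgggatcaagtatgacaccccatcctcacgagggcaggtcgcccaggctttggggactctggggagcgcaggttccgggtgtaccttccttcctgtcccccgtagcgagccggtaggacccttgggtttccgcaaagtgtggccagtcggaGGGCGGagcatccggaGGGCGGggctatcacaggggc
Bbc3, chr7:16309333-16309582, plus strand, 250 bases: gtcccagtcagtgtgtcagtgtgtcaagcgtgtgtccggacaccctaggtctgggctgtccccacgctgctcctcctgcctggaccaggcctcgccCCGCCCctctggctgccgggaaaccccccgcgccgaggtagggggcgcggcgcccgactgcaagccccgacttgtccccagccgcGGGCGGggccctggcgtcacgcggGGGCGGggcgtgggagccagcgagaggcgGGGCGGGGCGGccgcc

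The Bcl2l1 stretch holds no GC box, that of Bid holds 2 (3 in its full window) and that of Bbc3 holds 5. RefSeq windows were found for 9 of the 10 members, all but Pmaip1, with 15 windows of 250 bases. Unlike the stretches shown, these windows were counted whole, exons included. Windows 2 and 3 of Bcl2l1 and the Bak1 window lie wholly in annotated exons, as do 230 bases of window 2 of Bad. Windows 2 and 3 of Bbc3 overlap each other. The GC box was present in 10 of these 15 windows, compared with 59.0% of 10943 windows of genes of at least 1 FPKM. GC content ran from 47.6% in the shown Bcl2l1 window to 81.6% in a Bbc3 window. The half-site of the GR element, AGAACA or TGTTCT, was in 0 of the 15 windows and in 10.4% of those of measured genes, which says only that these letters are not in these windows.

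The 10 members spanned a wide range of levels, and their order was the same in all 4 columns: Bak1, Mcl1, Bax, Bad, Bcl2l1, Bid, Bcl2l11, Bbc3, Bcl2 and Pmaip1, from high to low. FPKM is scaled by length, so these levels can be set side by side. With control siRNA, Bak1, Mcl1 and Bax stood at 129, 118 and 104 FPKM, and only 3.06%, 3.34% and 3.88% of all genes were as high. Bcl2, the gene that names the family, stood at 2.95 FPKM, 19.9 times below Bcl2l1. With GR siRNA + DEX, Mcl1 and Bax were 109.8 and 109.6 FPKM, so the order of those neighbours rests on a small gap.

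**Figure D1:**
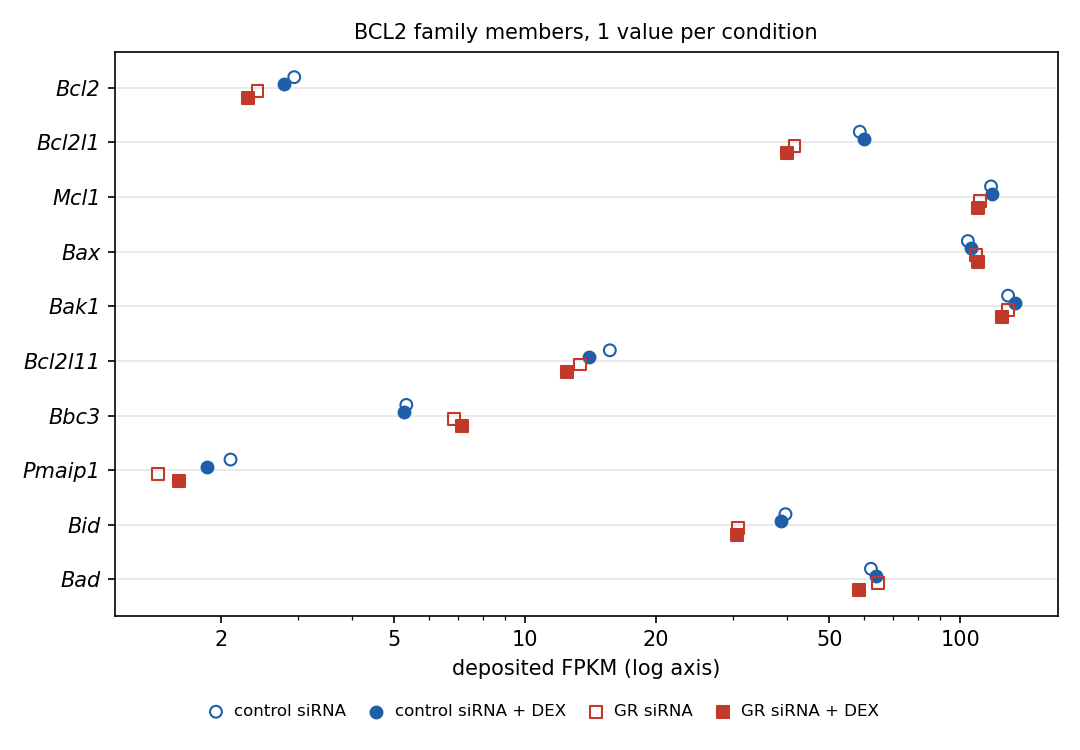
Deposited FPKM (log axis) of the 10 members, with blue circles for control siRNA and red squares for GR siRNA; filled symbols mark DEX. Bcl2l1, whose circles lie at 58.7 and 60.2 FPKM and squares at 41.6 and 40.1 FPKM, has the clearest gap between circles and squares.

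Setting the GR siRNA columns against the control ones asks how the family stands when less GR mRNA is present. Bcl2l1 and Bid were lower and Bbc3 higher by more than 1.2-fold in both DEX states, while Mcl1, Bax, Bak1 and Bad lay close to their control level. No member reached a 1.5-fold difference on the log2(FPKM + 1) scale, without DEX (4.9% of 11325 genes did) or with DEX (4.98% of 11344). At 1.2-fold, 4 of 10 members differed without DEX, compared with 23.3% of genes, and 3 of 10 with DEX, compared with 22.9%. The median over the members was −0.14 without DEX and −0.13 with DEX, beside −0.01 in both states over all genes.

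All 3 anti-apoptotic genes were lower in both GR siRNA columns than in either control siRNA column, as were 36.6% of 11445 genes. Bcl2l1 encodes BCL-XL, which guards mitochondria in many cell types (chromosome 2, 152780668 to 152831728 in mm10, minus strand). Control siRNA cells had 58.7 FPKM of it without DEX and 60.2 FPKM with DEX, and GR siRNA cells had 41.6 and 40.1 FPKM. The GR siRNA level was thus 70.8% of control without DEX and 66.6% with DEX, and the columns of the 2 arms did not overlap. On the log2 scale the differences were −0.49 and −0.57; 3.78% and 2.72% of genes were lower by as much.

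Bcl2l1 was the member farthest from genes of its own level. Among 3637 genes with a mean of 20 to 100 FPKM, the 5th percentile of the difference was −0.43 in each DEX state, and Bcl2l1 lay below it in both. By sequence the value is well separated from other genes: 0.0214% of its 31-base words occur in another annotated gene, and no other gene overlaps its exons. Splicing makes a long anti-apoptotic and a short pro-apoptotic form from it, and a gene-level FPKM does not divide them.

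Mcl1 encodes a short-lived guard that binds BIM and NOXA and was the most abundant of the 3 (chromosome 3, 95658788 to 95663176). Its levels were 118 FPKM in both control siRNA columns and 111 and 109.8 FPKM in the GR siRNA columns without and with DEX. The gap between the arms was small, with differences of −0.08 and −0.10, and 35.9% and 30.9% of genes were as low or lower. Bcl2 (chromosome 1, 106538178 to 106714274) was 2.95 and 2.79 FPKM in the control columns and 2.43 and 2.30 FPKM in the GR siRNA columns. Its differences of −0.20 in each DEX state were matched or exceeded on the low side by 18.1% and 18.0% of genes. The ratio of Mcl1 to Bcl2l1 was 2.002 and 1.96 in the control columns and 2.67 and 2.74 in the GR siRNA columns.

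The pore-forming genes differed little. Bax (chromosome 7, 45461697 to 45466898) was 104 and 106 FPKM with control siRNA and 108 and 109.6 FPKM with GR siRNA, a difference of 0.06 without DEX and 0.05 with DEX. Bak1 (chromosome 17, 27019810 to 27029009) was 129 FPKM in the untreated columns of both arms, 133 FPKM with control siRNA + DEX and 124 FPKM with GR siRNA + DEX. The Bax columns of the arms did not overlap but lay within a narrow range, and those of Bak1 did overlap. Part of the reads of either gene could be shared: 20.4% of the 31-base words of Bak1 and 11.1% of those of Bax occur in another gene, and the exons of Bak1 overlap those of Ggnbp1 (1.32 to 1.57 FPKM) on the other strand. The exons of Bax overlap by 192 bases those of Gm45808, a gene on the same strand.

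The BH3-only genes did not share a direction. Bid encodes the protein that caspase 8 cuts to carry a death receptor signal to mitochondria (chromosome 6, 120891930 to 120916853, minus strand). The control columns gave 39.6 and 38.7 FPKM, and the GR siRNA columns 30.8 and 30.7 FPKM. The arms did not overlap, and the differences were −0.35 and −0.32, with 7.35% and 8.61% of genes as low. Some 16.9% of its 31-base words are shared, and its exons overlap by 628 bases with those of Bcl2l13 on the other strand. Bcl2l13 differed little, at 12.0 and 12.0 FPKM with control siRNA against 12.4 and 11.9 FPKM.

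Bbc3 encodes PUMA, a strong activator of BAX and BAK that p53 induces and that binds every anti-apoptotic protein of the set (chromosome 7, 16308393 to 16318205). It was the only member whose difference passed 1.2-fold upward. Its levels were 5.33 and 5.26 FPKM with control siRNA and 6.85 and 7.15 FPKM with GR siRNA, without overlap. The differences were 0.31 and 0.38, with 8.23% and 5.57% of genes as high or higher. No 31-base word of Bbc3 occurs in another gene. The ratio of Bcl2l1 to Bbc3, a guard and one of its binders, was 11.0 and 11.4 in the control columns and 6.07 and 5.61 in the GR siRNA columns. As these are the most lowered and the most raised members, the shift in their ratio restates their differences.

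Bcl2l11 encodes BIM, the BH3-only protein that glucocorticoids raise in lymphocytes (chromosome 2, 128126038 to 128162547). Its level was 15.7 FPKM in control siRNA cells, 14.01 FPKM once DEX was added, and 13.3 and 12.5 FPKM in the GR siRNA pair. The arms did not overlap, but the gap between them was 14.01 against 13.3 FPKM, smaller than the one between the control columns. The siRNA differences of −0.21 and −0.15 were matched or exceeded on the low side by 17.1% and 23.3% of genes.

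Pmaip1 encodes NOXA, which binds MCL1 and marks it for destruction. It was the lowest of the set, at 2.10 and 1.85 FPKM with control siRNA and 1.43 and 1.60 FPKM with GR siRNA. Its siRNA difference was −0.35 without DEX and −0.13 with DEX, and at this level the size depends on the pseudocount. Bad encodes a BH3-only protein that growth factor signalling silences by phosphorylation (chromosome 19, 6941861 to 6951899). It was 62.3 and 64.0 FPKM with control siRNA and 64.8 and 58.4 FPKM with GR siRNA, so its arms overlapped and the siRNA differences were 0.06 and −0.13. Its exons overlap those of Gpr137 on the other strand, and 18.4% of its 31-base words are shared. Gpr137 was 30.5 and 34.7 FPKM with control siRNA and 28.2 and 26.0 FPKM with GR siRNA; its part in the values of Bad was not tested.

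**Figure D2:**
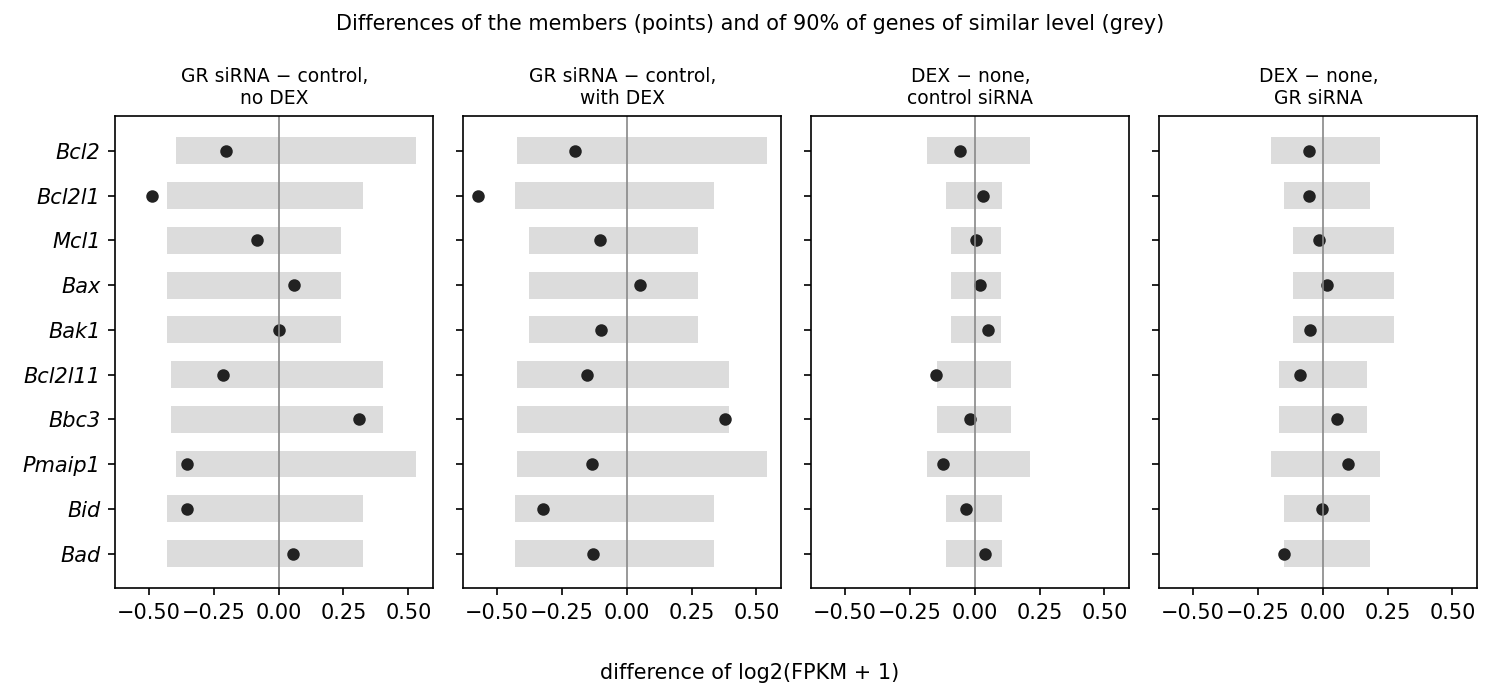
Difference of log2(FPKM + 1) for each member (points) in 4 comparisons, 1 panel each; grey bars run from the 5th to the 95th percentile of genes in the same class of mean level (1 to 5, 5 to 20, 20 to 100, or at least 100 FPKM). Bcl2l1 lies left of its bar in both siRNA panels, at −0.49 and −0.57, and Bcl2l11 lies just left of its bar for DEX in control siRNA cells, at −0.15.

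Counted over the set, 6 of 10 members had both GR siRNA columns below both control siRNA columns, and 2 of 10 had both above. The same held for 36.6% and 32.3% of 11445 genes, so most genes separated the arms in this way and the separation of a single member carries little. The 6 were Bcl2, Bcl2l1, Mcl1, Bcl2l11, Pmaip1 and Bid, and the 2 were Bax and Bbc3.

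By role, the summed anti-apoptotic level was lower with GR siRNA while the summed pore-forming level was nearly level. The anti-apoptotic genes summed to 179 and 181 FPKM in the control columns and to 155 and 152 FPKM in the GR siRNA columns. Bcl2l1 made up most of that gap. The pore-forming genes summed to 233 and 239 FPKM against 237 and 234 FPKM, and the BH3-only genes to 125 and 124 FPKM against 117 and 110 FPKM. The anti-apoptotic share of the 10 members' sum was 33.4% and 33.3% with control siRNA and 30.4% and 30.6% with GR siRNA. These are sums of mRNA levels, and the family is also set by protein stability and binding, which were not measured.

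**Figure D3:**
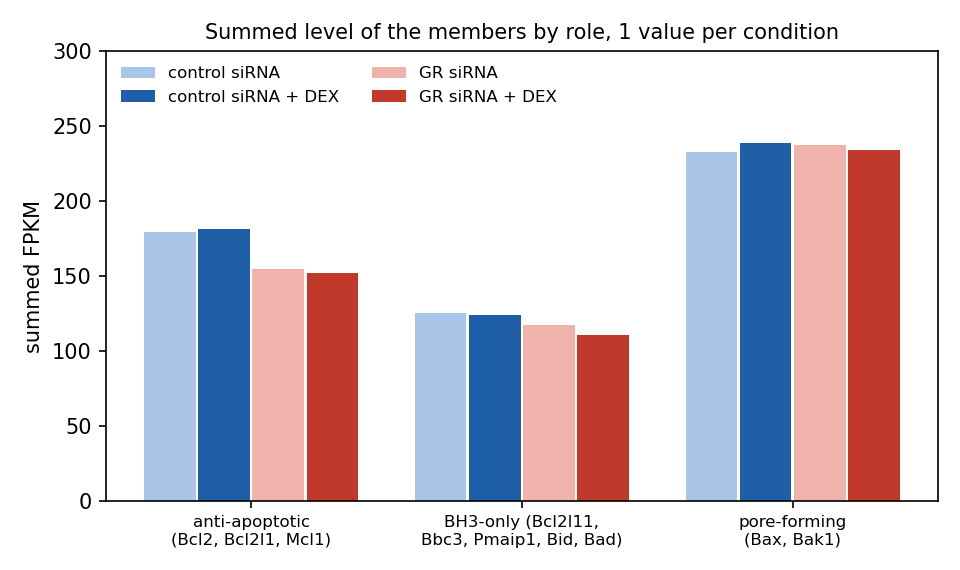
Summed FPKM of the members by role (vertical axis from 0), 1 bar per condition, light without DEX and dark with DEX. The anti-apoptotic bars are 179 and 181 FPKM with control siRNA and 155 and 152 FPKM with GR siRNA, while the pore-forming bars lie between 233 and 239 FPKM.

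The comparison of DEX with no DEX asks how levels differed with the added glucocorticoid in each siRNA arm. No member differed by 1.2-fold in either arm. Over all genes, 2.57% of 11227 did so in control siRNA cells and 3.75% of 11310 in GR siRNA cells; at 1.5-fold the shares were 1.08% and 1.18%. The median over the members was −0.01 in control siRNA cells and −0.03 in GR siRNA cells, beside −0.01 and 0.00 over all genes.

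Well known GR target genes also differed little with DEX in control siRNA cells: Tsc22d3 by 0.19, Per1 by 0.12, Fkbp5 by 0.04 and Zbtb16 by −0.10, none of them 1.2-fold. All 4 were at least 1.5-fold lower with GR siRNA in both DEX states.

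On the deposited scale, the largest DEX difference of a member in control siRNA cells was that of Bcl2l11, at −0.15, with 4.41% of genes as low. After upper quartile rescaling this difference was −0.06. In GR siRNA cells Bcl2l11 differed by −0.09, with 19.2% of genes as low. Bad differed by 0.04 in control siRNA cells and by −0.15 in GR siRNA cells, where 7.18% of genes were as low. Pmaip1 differed by −0.12 and 0.10. Bcl2l1 differed by 0.03 and −0.05, far less than between the siRNA arms. The 2 DEX comparisons and the 2 siRNA comparisons use the same 4 columns, so they are not separate evidence.

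For the interaction, which asks whether the siRNA difference itself depended on DEX, the members ran from −0.19 for Bad to 0.22 for Pmaip1, with a median of 0.00. The other 8 lay between −0.10 and 0.07. None was tested.

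Relatives of the family outside the 10 were read from a list of 16 genes, of which 8 reached 1 FPKM. Those 8 included 2 with larger siRNA differences than any of the 10 members. Bik, a BH3-only gene of the endoplasmic reticulum, was 21.2 and 24.8 FPKM with control siRNA and 37.6 and 40.3 FPKM with GR siRNA, with differences of 0.79 and 0.68. Only 1.21% and 1.69% of genes were as high. Bmf, a BH3-only gene whose protein is tethered to the cytoskeleton, was 3.40 and 3.91 FPKM against 1.77 and 1.58 FPKM, with differences of −0.67 and −0.93. For Bmf, 1.96% and 0.908% of genes were as low.

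Bik and Bmf thus stood at opposite ends of the same functional class. Their ratio was 6.25 and 6.34 in the control columns and 21.2 and 25.5 in the GR siRNA columns. The pair was picked as the extremes of the list, so this shift restates their differences, and Bmf was at low levels. Fewer than 1% of the 31-base words of either are shared with other genes, and neither overlaps another gene's exons. Bok, a relative of Bax and Bak1, was 26.5 and 29.3 FPKM with control siRNA and 36.7 and 35.4 FPKM with GR siRNA, which gave differences of 0.46 and 0.26. The anti-apoptotic Bcl2l2, which encodes BCL-W, was 18.9 and 18.5 FPKM against 18.1 and 16.6 FPKM. The 4 Bcl2a1 genes, which encode a guard found mainly in blood cells, were listed at 0 in every column; they share much of their sequence with each other, so reads could have been lost between them.

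**Figure D4:**
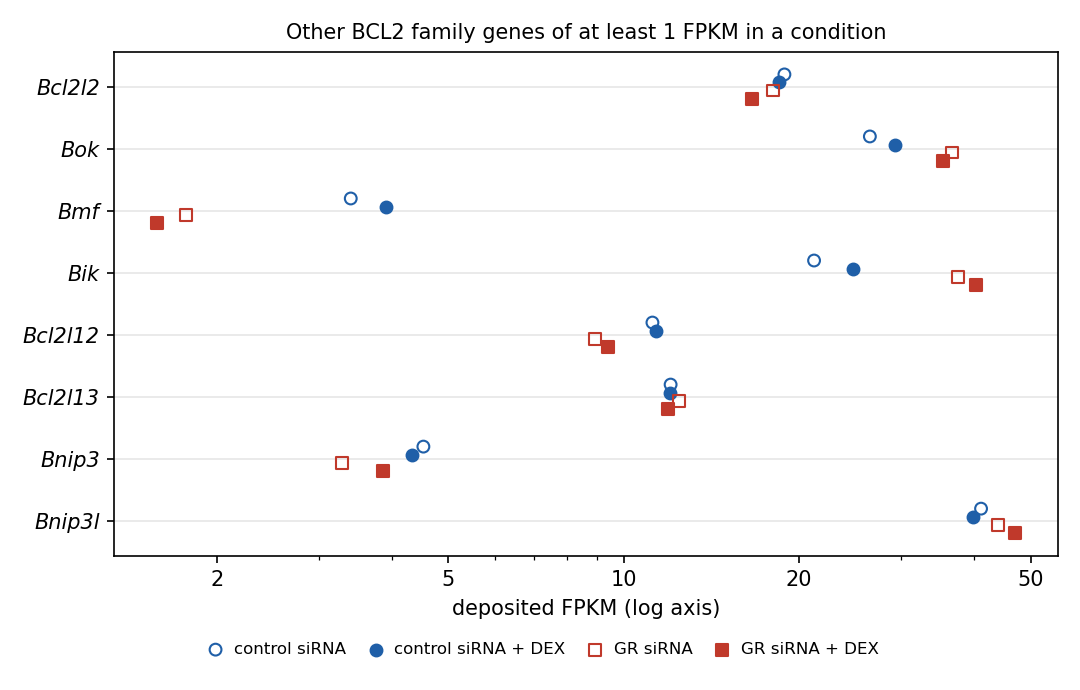
Deposited FPKM (log axis) of the 8 other BCL2 family genes of at least 1 FPKM in a condition, with blue circles for control siRNA, red squares for GR siRNA and filled symbols for DEX. Bik lies at 21.2 and 24.8 FPKM against 37.6 and 40.3 FPKM, and Bmf at 3.40 and 3.91 against 1.77 and 1.58 FPKM.

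Downstream of the mitochondrial pore, the 12 apoptosome and executioner genes had siRNA medians of 0.05 without DEX and 0.08 with DEX, and none reached 1.5-fold, as 4.9% and 4.98% of all genes did. With so few genes a count of 0 says little. Cytochrome c (Cycs), which leaves the mitochondrion through the pore, was 99.0 and 97.2 FPKM against 96.7 and 104 FPKM. The scaffold gene Apaf1 was 11.6 and 10.3 FPKM against 11.6 and 10.7 FPKM. The 5 genes of inhibitor of apoptosis proteins had medians of −0.16 and −0.08, and 1 was higher without DEX and 2 with DEX. Birc3 was 4.67 and 4.28 FPKM against 3.40 and 3.47 FPKM. Birc5 was 132 FPKM in both control columns against 104 and 103 FPKM, with differences of −0.34 and −0.35. Birc6 was higher with GR siRNA, with differences of 0.20 and 0.22.

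The death receptor route joins the mitochondrial one through Bid, and 8 of its 10 listed genes were measured. Their medians were −0.12 without DEX and −0.04 with DEX, and 1 of 8 was 1.5-fold lower without DEX, where 4.9% of all genes differed by that much either way. That gene was Fas, a death receptor, with 10.3 and 11.0 FPKM in the control columns against 5.80 and 7.35 FPKM. Cflar, which encodes the caspase 8 inhibitor c-FLIP, was 19.1 and 17.9 FPKM against 13.1 and 12.9 FPKM, with differences of −0.51 and −0.44. Other genes of the list were higher with GR siRNA: the death receptor gene Tnfrsf10b was 34.9 and 33.8 FPKM against 44.8 and 42.9 FPKM, with differences of 0.35 and 0.33. The adaptor kinase gene Ripk1 was 15.0 and 13.7 FPKM against 16.4 and 17.2 FPKM. Casp8 itself was 40.3 and 37.0 FPKM against 36.2 and 37.0 FPKM.

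Genes of the p53 route, to which Bbc3, Pmaip1 and Bax belong, were listed separately from the members. Of 13 measured, 3 were 1.5-fold lower with GR siRNA without DEX (4.9% of all genes differed by as much in either direction) and 2 with DEX, and none was 1.5-fold higher. The medians were −0.15 and −0.19. Cdkn1a, the cell cycle inhibitor p21, was 92.8 and 99.2 FPKM with control siRNA and 60.0 and 61.8 FPKM with GR siRNA. Trp53inp1 was 2.35 and 2.43 FPKM against 0.771 and 0.805 FPKM, and Ccng1 was 26.0 and 25.5 FPKM against 16.2 and 17.8 FPKM. Bbc3 was higher in the same columns where these 3 genes were lower, and Trp53 itself was 14.1 and 13.8 FPKM against 15.0 and 15.0 FPKM. The list did not share a direction. Of the 13 genes, 8 had both GR siRNA columns below both control siRNA columns and 3 had both above. The shares over all genes were 36.6% and 32.3%.

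**Figure D5:**
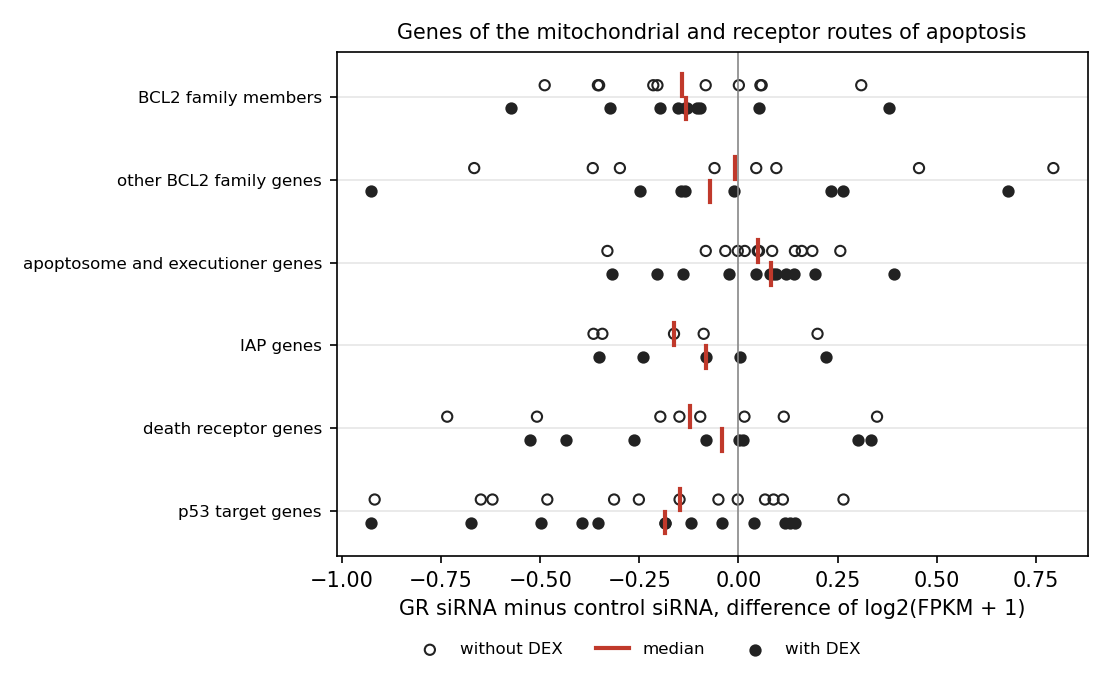
GR siRNA minus control siRNA, as a difference of log2(FPKM + 1), for each measured gene of the members and of 5 lists; open circles are without DEX, filled circles with DEX, and red bars are medians. The members run from −0.57 to 0.38, and the other BCL2 family genes, from −0.93 (Bmf) to 0.79 (Bik), spread wider.

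A pair of 7-base words in 3′ untranslated regions, TTCTGAA and TCTGAAA, was named in earlier work on these data as going with lower values in the GR siRNA columns. At least 1 of them is present in 6 of 10 members (Bcl2, Mcl1, Bcl2l11, Pmaip1, Bid and Bad), compared with 30.8% of 10364 measured genes. Those 6 members had a median siRNA difference of −0.21 without DEX, and the other 4 had 0.03. With DEX these medians were −0.14 and −0.02, a smaller gap. Over all measured genes the medians were −0.06 with a word and 0.01 without, and −0.05 and 0.01 with DEX. Because the words were named on these same data, lower medians with a word are not separate evidence. Genes with a word also had longer 3′ regions, with a median of 2354 against 877 nt, and the part of either feature in the members' values was not tested. Bcl2l1, the member with the largest siRNA differences (−0.49 without DEX and −0.57 with DEX), holds neither word. Nor do Bbc3, Bik and Bmf.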

How the data were processed

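The study measured RNA by sequencing in 4 samples, 1 per condition. The deposited values are FPKM, in 1 column per condition of 1 table. They were made with TopHat2 and Cuffdiff on mm10, per the submitters' processing notes. How replicates were handled was not given in the sources used here, nor were tool versions, the annotation, any strand option or the number of reads. Relative depth was therefore only estimated, from the commonest ratio between columns of genes under 0.1 FPKM. That ratio was shared by 317 of 1656 to 412 of 1941 such genes. The estimates were 0.671 (control siRNA), 0.962 (control siRNA + DEX), 1 (GR siRNA) and 0.811 (GR siRNA + DEX).

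Differences of log2(FPKM + 1) were computed over genes of at least 1 FPKM in a column compared, in Python 3.11.15 with pandas 2.3.3, and counted at 1.5-fold and 1.2-fold. With 1 column per condition there was no test; limma, planned for replicate columns, was not used. The counting was tested on simulated data. The members and lists (131 symbols, 1 not in the table) were chosen with earlier results of these data known. All 10 members are named, and list genes by the size of their siRNA difference or, for Casp8, Cycs, Apaf1, Trp53, Bcl2l2 and Bcl2l13, for their role. A rule to name genes of like pattern applied to members that span 1.5-fold, and 0 did. Coordinates, shared 31-base words (either strand) and 3′ regions come from GENCODE M21 on mm10, and promoters from RefSeq on GRCm38.p6.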

Additional observations from a re-analysis of the deposited data

How the results depend on the processing

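No paired analysis was possible because the table holds 1 column per condition and so carries no replicate numbers to pair, and no replicate could be left out. The members' differences were recomputed, giving 290 values, under pseudocounts of 0.1 and 5, no filter, a filter at 5 FPKM, and upper quartile and median ratio rescaling. Of these, 282 moved by less than 0.1 and 8 moved by more, 2 of them with the pseudocount of 0.1 and 6 with that of 5; they were differences of Bcl2, Bbc3 and Pmaip1. Another sign was given by 8, whose size was at most 0.07. The count of members at least 1.5-fold lower with DEX, 0 as reported, was 1 (Bcl2l1) with a pseudocount of 0.1 and 1 after upper quartile rescaling. Counted at 1.2-fold it was 3 lower and 1 higher without DEX and 2 lower and 1 higher with DEX. The median without DEX was −0.0409 at a minimum of 5 FPKM, where Bcl2 and Pmaip1 drop out. Counts at 2-fold were 0 throughout. The counts of non-overlapping members were also recomputed under alternatives chosen after the data were seen. They stayed at 6 lower and 2 higher under both rescalings. At a minimum of 5 FPKM they were 4 lower and 2 higher, beside 38.7% and 31.2% of all genes. After upper quartile rescaling the share of all genes with both GR siRNA columns lower was 27.9%. Upper quartile rescaling moved the median of all genes by less than 0.1 in each comparison. The largest move was for DEX in control siRNA cells, from −0.01 to 0.08, more than most DEX differences of the members there. In that comparison the members' median also became 0.08, with Bcl2l11 at −0.06 and Bak1 at 0.145. The interaction median of the members became −0.08. The size and sign of small DEX differences thus depend on the scaling. Low levels are the least precise, and the control siRNA column had the lowest estimate of relative depth. That estimate could not be checked against read numbers, and no interval can be given without counts.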

Other observations

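Regulators of the family members were read from lists of transcription factors and of partner proteins. Of 11 measured transcription factors, Nfkb1, a subunit of NF-kappaB, which is known to act on Bcl2l1, was the farthest from control. The control columns gave 30.2 and 30.1 FPKM for it and the GR siRNA columns 20.6 and 18.96 FPKM, with its partner Rela at 46.0 and 46.3 FPKM against 45.8 and 42.2 FPKM. Stat3 was 45.6 and 46.8 FPKM against 39.7 and 37.8 FPKM. Foxo1, of a family known to act on Bcl2l11 and Bbc3, was 14.1 and 14.4 FPKM against 17.2 and 16.7 FPKM, and Foxo3 was 5.58 and 5.76 FPKM against 6.08 and 5.76 FPKM. Ddit3 had differences of −0.40 without DEX and −0.23 with DEX, and Atf4 of −0.28 and −0.25. Of the 11 factors, 6 were lower without DEX and 7 with DEX, beside 52.8% and 51.8% of all genes. The part of these factors in the members' values was not tested.

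Of 11 measured partner and ubiquitin pathway genes, the median difference with GR siRNA was 0.13 without DEX and 0.01 with DEX. Huwe1, a ubiquitin ligase of MCL1, was 14.3 and 12.7 FPKM with control siRNA and 17.0 and 15.3 FPKM with GR siRNA. Usp9x, which removes ubiquitin from MCL1, was 13.7 and 12.6 FPKM against 16.7 and 15.1 FPKM, so genes of opposite action on MCL1 differed in the same direction. Vdac2, the channel that holds BAK at the mitochondrion, was 252 and 258 FPKM against 263 and 282 FPKM.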
